A study of Mus musculus with 6 samples.

Results

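Hypothalamic neurons read the state of the body through receptors for peptides made in the brain, the gut and the pancreas, and the genes described here encode 9 such receptors: Mc3r, Mc4r, Npy1r, Npy2r, Npy5r, Ghsr, Glp1r, Cckbr and Calcr. All are G protein-coupled receptors, of 37074 gene names on the array. They were taken as every probe whose gene name is one of these symbols, which gave 14 probes. The melanocortin receptors bind α-MSH, a satiety peptide cut from the Pomc precursor, and are blocked by Agrp. Neuropeptide Y acts on Npy1r and Npy5r to promote feeding, whereas Npy2r acts in part as a presynaptic brake on the release of neuropeptide Y itself. Ghsr binds ghrelin, the hunger hormone of the stomach, and Glp1r, Cckbr and Calcr bind glucagon-like peptide 1, cholecystokinin and gastrin, and calcitonin. With a Ramp protein as partner, Calcr also forms the receptor for amylin, a satiety hormone of the pancreas.

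RNA was taken from the hypothalamus of male C57BL/6J mice with diet-induced obesity (DIO), all kept on a diet with 60 kcal% fat, and hybridised in 1 colour to 6 Agilent mouse expression arrays. The 3 GSK-J4 mice had received 30 mg/kg of GSK-J4, an inhibitor of the Kdm6 demethylases that remove methyl groups from lysine 27 of histone H3, and the 3 vehicle mice the vehicle alone (0 mg/kg). The series places the tissue 4 d after exposure and describes a different mouse for each array, and the ages of the mice at collection are not in the labels. The compound was given to the whole animal, so that it was not confined to the hypothalamus. The comparison asks whether Kdm6 inhibition changed the mRNA of these receptors.

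The dissected tissue was checked first. Of 24 marker genes of hypothalamic nuclei, 14 were well above background, a flag set by the scanner software, on all 6 arrays, 7 on some arrays, and 3 on none (Sim1 and Otp of the paraventricular nucleus and Six6 of the suprachiasmatic nucleus). The 4 markers of cortex and hippocampus examined (Neurod2, Neurod6, Tbr1, Emx1) were well above background on all 6 arrays. The highest log2 signal was 13.85 for Neurod2 and 9.50 for Emx1, the brightest and the dimmest of these 4. Among the hypothalamic markers the highest signal ranged from 2.92 for Otp to 12.04 for Npy. Vip reached 10.11 and Crh 8.96, whereas Oxt reached 6.44, Hcrt 5.98 and Agrp 5.20. Avp reached 5.44 and Pmch 4.97, each well above background on 3 of the 6 arrays. Whether the signal of the brighter markers came from hypothalamic cells alone was not tested. How much tissue from outside the hypothalamus the samples held was not tested. The vehicle arrays were the brighter group, with 62.8% to 63.6% of probes well above background against 57.7% to 58.7% on the GSK-J4 arrays. The 3 vehicle arrays lay on 1 slide and the 3 GSK-J4 arrays on another, and slide and drug therefore cannot be told apart. The array of vehicle 1 stood apart in genes of the choroid plexus, with 7 of 7 tested marker probes highest there among the vehicle arrays. Of all tested probes, 33.3% were highest on vehicle 1. At 7 of the 7 choroid plexus probes vehicle 1 exceeded the mean of vehicle 2 and 3 by at least 1 on the log2 scale. Such a gap was found at 1.12% of all tested probes.

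Probes of the same receptor did not always behave alike, so the parts of the transcript they read are shown first. Coordinates are those of the array files on mm9, and sequences are copied from the files, 5′ to 3′, with the letters AATAAA, the commonest polyadenylation signal, in capitals where present. Each line gives 30 bases of a 60-base probe, except for Cckbr A_51_P506201, which is shown whole because its 60 bases span 220 bases of genome and so cross a splice junction.
Npy1r A_55_P2737692, chr8:69227750-69227809: gagtatgctgaagatttgatccgttttgaa
Npy1r A_55_P2103452, chr8:69230632-69230691: aaatgttgcctgtgtgtgattttagaaggg
Npy2r A_55_P1977676, chr3:82343900-82343959, minus strand: taaaagggagaagtaagtgttatctctgag
Npy2r A_51_P311919, chr3:82342675-82342734, minus strand: gagtactgaaaaggAATAAAacaccagaag
Cckbr A_51_P506201, chr7:112582327-112582546: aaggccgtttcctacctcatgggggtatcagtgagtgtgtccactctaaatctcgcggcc
Cckbr A_55_P2728608, chr7:112584374-112584433: ttatcaacaggcctaaaatcacatgccttt
Cckbr A_52_P596375, chr7:112584581-112584640: ttatgggaaacatctttatctgtttgctcc

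The Npy1r probes lie 2822 bases apart, with A_55_P2103452 further along in the direction of transcription. The Npy2r probes are separated by 1165 bases, and A_51_P311919, the further downstream, carries the motif. On the strand printed by the files, AATAAA stood in 2 of the 14 receptor probes, the other being the Mc3r probe, which was not tested. It stood in 9.77% of all 56605 probes and in 10.6% of all tested probes. Its reverse complement TTTATT stood in 0 receptor probes and in 3.83% of tested probes. The downstream Cckbr probes are separated by 147 bases, and A_51_P506201 lies 1827 bases upstream of the nearer one. Whether a probe falls in coding sequence or in an untranslated region was not analysed here.

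Of the 14 probes, 8 cleared background on every array of 1 group or of both and were tested, and they belong to Mc4r, Npy1r, Npy2r, Npy5r and Cckbr. The other 6 probes were too dim, so that Mc3r, Ghsr, Glp1r and Calcr had no tested probe and Cckbr had 1 untested probe. No receptor probe passed an adjusted p of 0.05 in limma, and 1 of 8 passed at an unadjusted p of 0.05, as did 36.5% of all tested probes. Among all 34443 tested probes, 8.39% were called higher and 8.42% lower in GSK-J4. Differences here and below are GSK-J4 minus vehicle on the log2 scale of the deposited signal. They ranged from -0.50 to 0.74 over the 8 probes, 4 above and 4 below 0, with a median of 0.12 beside 0.02 over all tested probes. The median absolute difference was 0.39 beside 0.25 over all tested probes. At the thresholds of fold and unadjusted p named in the methods, 0 of the 8 receptor probes passed in either direction, beside 3.31% higher and 5.22% lower of all tested probes. Counts of adjusted calls over all probes dropped when an array was left out: without vehicle 1 there were 2 higher and 8 lower, without vehicle 2 there were 1 and 12, and without vehicle 3 there were 1 and 4. Without GSK-J4 1 they were 973 and 1429, without GSK-J4 2 they were 2075 and 2090, and without GSK-J4 3 they were 1537 and 2481. In bulk tissue, fewer cells of a type and less RNA per cell cannot be told apart.

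**Figure D1:**
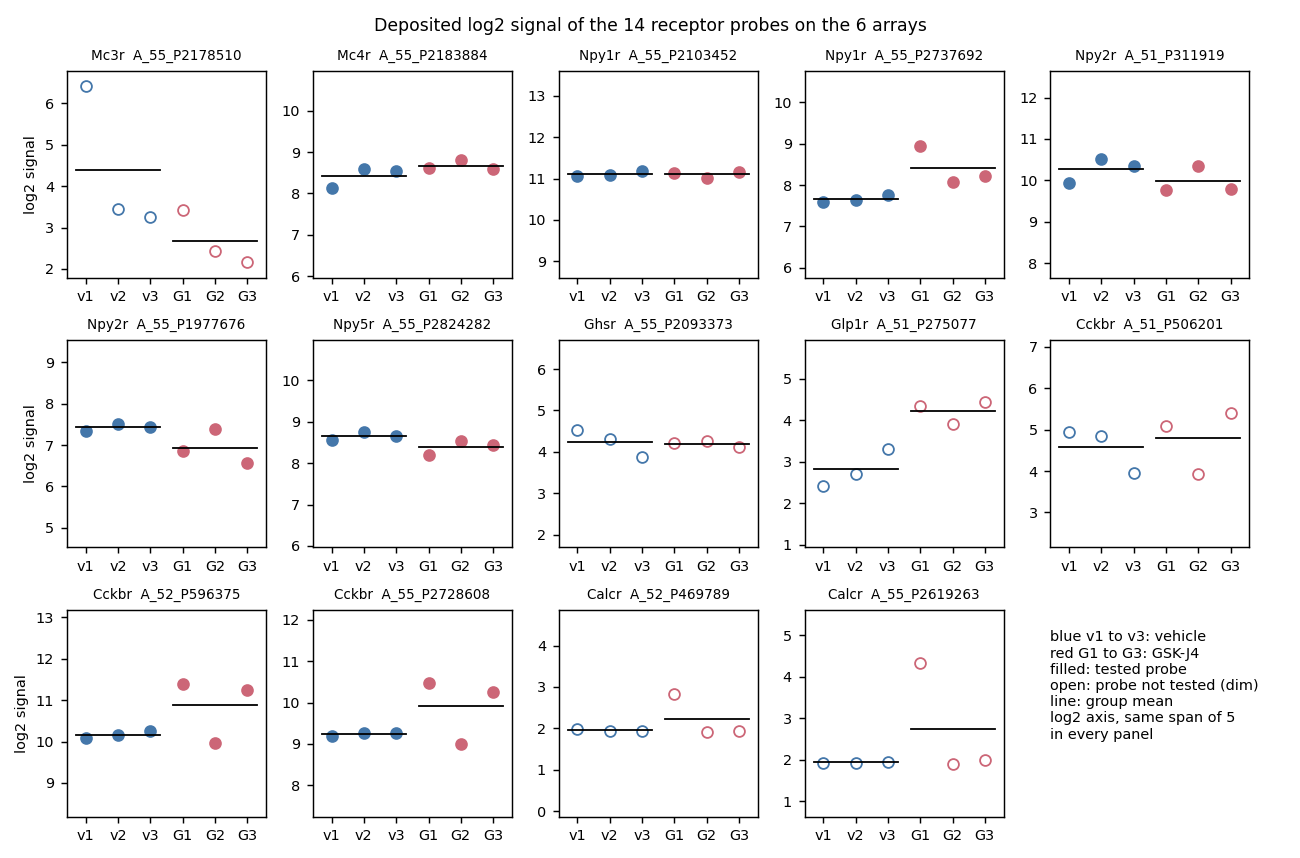
Deposited log2 signal (y axis, the same span in each panel) of each of the 14 receptor probes on the 3 vehicle arrays (blue) and the 3 GSK-J4 arrays (red), with a line at each group mean. Filled points are the 8 tested probes and open points the 6 probes too dim to test; the Cckbr probes A_52_P596375 and A_55_P2728608 are high on GSK-J4 1 and 3 alone, and Mc3r is high on vehicle 1 alone.

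Mc4r, the melanocortin receptor whose loss causes obesity in mice and people, gave log2 signals of 8.13, 8.60 and 8.54 on vehicle 1, 2 and 3 and of 8.60, 8.81 and 8.60 on GSK-J4 1, 2 and 3. Vehicle 1 was the low array, and the other vehicle arrays met the GSK-J4 arrays. The group means were 8.42 ± 0.26 (SD, n = 3 arrays) for vehicle and 8.67 ± 0.12 for GSK-J4. The difference of 0.25 (SE 0.15, 95% interval -0.12 to 0.61) did not pass the test, with a limma adjusted p of 0.279, and without vehicle 1 it was 0.10. A rise of more than 1.53-fold or a fall below 0.92 of the vehicle level lay outside the interval.

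Mc3r, the other neural melanocortin receptor, was well above background on vehicle 1 alone, at 6.42. It stood at 3.46 and 3.26 on vehicle 2 and 3, and at 3.43, 2.44 and 2.16 on the GSK-J4 arrays. Apart from vehicle 1, no array carried a measured level, so that no fold between the groups can be given. Choroid plexus markers moved with it: on vehicle 1, Ttr (transthyretin) by its probe A_65_P19832 read 16.15 against 10.66 and 10.85 on the other vehicle arrays, and Kcne2, a potassium channel subunit of that epithelium, read 12.29 against 5.49 and 5.38. The summed signal of the 7 listed choroid plexus genes ranged from 3073 to 130923 over the vehicle arrays and from 2871 to 12514 over the GSK-J4 arrays, and 0 of the 7 genes were below background on every array. Their part in the Mc3r signal of vehicle 1 was not tested.

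**Figure D2:**
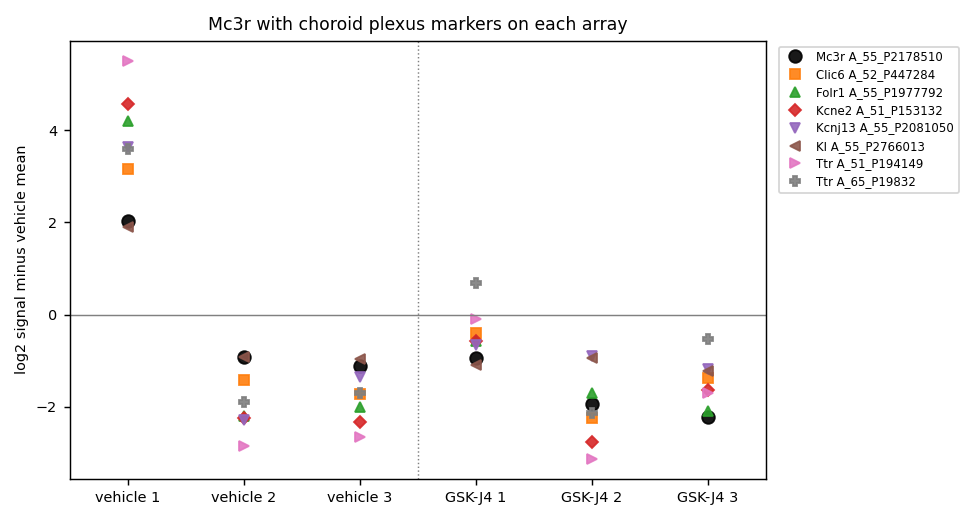
Log2 signal minus the vehicle mean (y axis) of the Mc3r probe (black) and of the 7 tested choroid plexus probes (colours) on each of the 6 arrays (x axis). All of them are highest on vehicle 1; Mc3r was not well above background on the other arrays.

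Npy1r, the main postsynaptic receptor for neuropeptide Y in feeding circuits, gave a different picture from each of its probes. The downstream probe A_55_P2103452 read 11.06, 11.08 and 11.19 in vehicle and 11.13, 11.02 and 11.17 in GSK-J4, with the groups interleaved. Its difference was -0.0047 (SE 0.08, 95% interval -0.20 to 0.19, limma adjusted p = 0.973), the narrowest interval of the 8 probes. The upstream probe A_55_P2737692 read 7.58, 7.65 and 7.77 in vehicle and 8.95, 8.07 and 8.21 in GSK-J4. All 3 GSK-J4 arrays stood above all 3 vehicle arrays at this probe, with GSK-J4 1 the furthest. Over all tested probes, 24.5% had every GSK-J4 array above every vehicle array and 21.2% had every one below.

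The upstream Npy1r difference of 0.74 (SE 0.24, 95% interval 0.16 to 1.33) had an unadjusted p of 0.0215 and a limma adjusted p of 0.0827, and so did not pass the threshold. Without GSK-J4 1 it was 0.47, with an adjusted p of 0.0577. Tested probes with its GC content of 35% had a median difference of -0.15, and with the GC trend removed the upstream probe's difference was 0.91 (adjusted p = 0.0650). Within each array, the upstream minus the downstream probe averaged -3.45 ± 0.03 (SD, n = 3) in vehicle and -2.70 ± 0.45 in GSK-J4. That change of 0.75 had a two-sided exact permutation p of 0.1, the smallest that 3 arrays against 3 can give. Of the 8 tested probes taken singly, the upstream Npy1r probe and the Npy5r probe reached that p. Which of the probes follows Npy1r mRNA as a whole was not tested.

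Npy5r, which shares its ligand with Npy1r and lies close to it on chromosome 8, read 8.55, 8.74 and 8.66 in vehicle and 8.20, 8.52 and 8.45 in GSK-J4. Every GSK-J4 array was below every vehicle array, by a small margin. The difference was -0.26 (SE 0.11, 95% interval -0.54 to 0.01), with a limma adjusted p of 0.150. The Npy5r probe also has a GC content of 35%, and 15.3% of the 7292 tested probes with that content were called lower against 1.69% called higher. With the trend on GC content removed within each array, the Npy5r difference was -0.09.

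Npy2r was lower on GSK-J4 1 and 3 than on GSK-J4 2 at both of its probes. The upstream probe A_55_P1977676 read 7.35, 7.51 and 7.43 in vehicle and 6.86, 7.38 and 6.56 in GSK-J4, so that GSK-J4 2 lay within the vehicle range. Its difference was -0.50 (SE 0.21, 95% interval -1.01 to 0.02, limma adjusted p = 0.149), and without GSK-J4 2 it was -0.72, with an adjusted p of 0.0350. Without GSK-J4 1 it was -0.46 and without GSK-J4 3 it was -0.31, with limma adjusted p of 0.274 and 0.257. The downstream probe A_51_P311919 read 9.94, 10.52 and 10.35 in vehicle and 9.78, 10.35 and 9.80 in GSK-J4, with the groups overlapping. Its difference of -0.29 (SE 0.22, 95% interval -0.83 to 0.25) had a limma adjusted p of 0.379. With the GC trend removed, the difference was -0.12 at this probe and -0.57 at the upstream probe. Within each array, the upstream minus the downstream Npy2r probe averaged -2.84 ± 0.22 (SD, n = 3) in vehicle and -3.04 ± 0.17 in GSK-J4 (two-sided exact permutation p = 0.4).

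**Figure D3:**
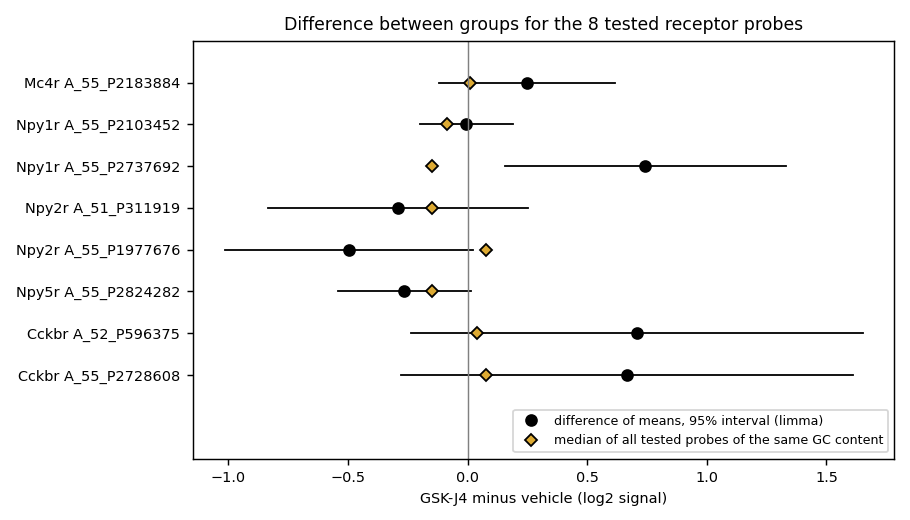
GSK-J4 minus vehicle difference in log2 signal (x axis) for the 8 tested receptor probes, with the 95% interval from limma (lines) and the median difference of all tested probes of the same GC content (diamonds). The intervals are narrowest for Npy1r A_55_P2103452 and widest for the Cckbr probes, and only that of Npy1r A_55_P2737692 lies wholly on one side of 0.

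Cckbr, the brain receptor for cholecystokinin, had the widest spread among the tested receptor probes. Its probe A_52_P596375 read 10.09, 10.15 and 10.25 in vehicle and 11.40, 9.97 and 11.25 in GSK-J4. The neighbouring probe A_55_P2728608 read 9.20, 9.27 and 9.27 in vehicle and 10.47, 9.01 and 10.26 in GSK-J4. At both, GSK-J4 1 and 3 were above the vehicle arrays and GSK-J4 2 was below them.

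The Cckbr difference was 0.71 (SE 0.38, 95% interval -0.24 to 1.65, limma adjusted p = 0.234) at A_52_P596375 and 0.67 (SE 0.38, 95% interval -0.28 to 1.61, limma adjusted p = 0.260) at A_55_P2728608. The result depended on which GSK-J4 array was left out. Without GSK-J4 2 the differences were 1.16 and 1.12, with limma adjusted p of 0.0149 and 0.0154. Without GSK-J4 1 they were 0.45 and 0.39, with limma adjusted p of 0.460 and 0.507. Without GSK-J4 3 they were 0.52 and 0.50, with limma adjusted p of 0.422 and 0.451. The probe across the splice junction, A_51_P506201, was well above background on 2 arrays of each group and was not tested. It read 4.93, 4.84 and 3.96 in vehicle and 5.09, 3.92 and 5.40 in GSK-J4, with GSK-J4 2 again the lowest of its group.

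Marker lists were read for the same division of the GSK-J4 arrays. The mean of GSK-J4 1 and 3 exceeded GSK-J4 2 by 1.35 at Cckbr A_52_P596375 and by 1.36 at A_55_P2728608, and a gap of at least 1 with both arrays above GSK-J4 2 was found at 1.28% of all tested probes. GSK-J4 1 and 3 both stood above GSK-J4 2 at 3 of 3 tested probes for the suprachiasmatic nucleus, 7 of 10 for the arcuate nucleus, 3 of 5 for cortex and hippocampus and 4 of 7 for choroid plexus, beside 32.3% of all tested probes. The count was 0 of 3 for the paraventricular nucleus, 1 of 5 for the ventromedial nucleus and 1 of 4 for the lateral hypothalamus. It was 2 of 9 for thalamus, 0 of 1 for pituitary, 4 of 13 for neurons and 0 of 7 for microglia. It was 2 of 10 for astrocytes, 2 of 12 for oligodendrocytes, 2 of 6 for endothelium and 2 of 5 for tanycytes and ependyma. Of the 4 lateral hypothalamus probes, 3 were of Lhx9, which is also in the thalamus list, so they count in both. The remaining probe, of Hcrt, read 5.62, 5.10 and 5.98 on GSK-J4 1, 2 and 3. The suprachiasmatic Prok2 probe was well above background on 1 GSK-J4 array, and read 4.22 and 4.23 on GSK-J4 2 and 3. A gap of at least 1 was found at 4 of the 7 choroid plexus probes and at 0 of the 5 for cortex and hippocampus, 0 of the 10 for the arcuate nucleus and 0 of the 3 for the suprachiasmatic nucleus. Among the markers of cortex and hippocampus, the gaps were smaller than at Cckbr. Tbr1, a transcription factor of cortical glutamatergic neurons, had gaps of 0.52 and 0.80 at its probes and Emx1, a transcription factor of the dorsal forebrain, a gap of 0.33, whereas Neurod6 and Neurod2, factors of excitatory neurons, had gaps of -0.19 and -0.24. The summed signal of the cortical and hippocampal markers ranged from 24416 to 26145 over the vehicle arrays and from 22026 to 23597 over the GSK-J4 arrays. Bright probes weigh most in this sum. Of the 5 tested probes, 2 were called higher and 1 lower, beside 8.39% and 8.42% of all tested probes. Emx1 differed by 0.53 (limma adjusted p = 0.0373), Tbr1 A_55_P2713510 by 0.97 (0.0457) and Neurod6 by -0.47 (0.0335). The other Tbr1 probe was at -0.06 (limma adjusted p = 0.800). With the GC trend removed, none of these calls held (adjusted p = 0.158, 0.0590 and 0.104). The part of neighbouring tissue in the Cckbr difference was not tested.

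**Figure D4:**
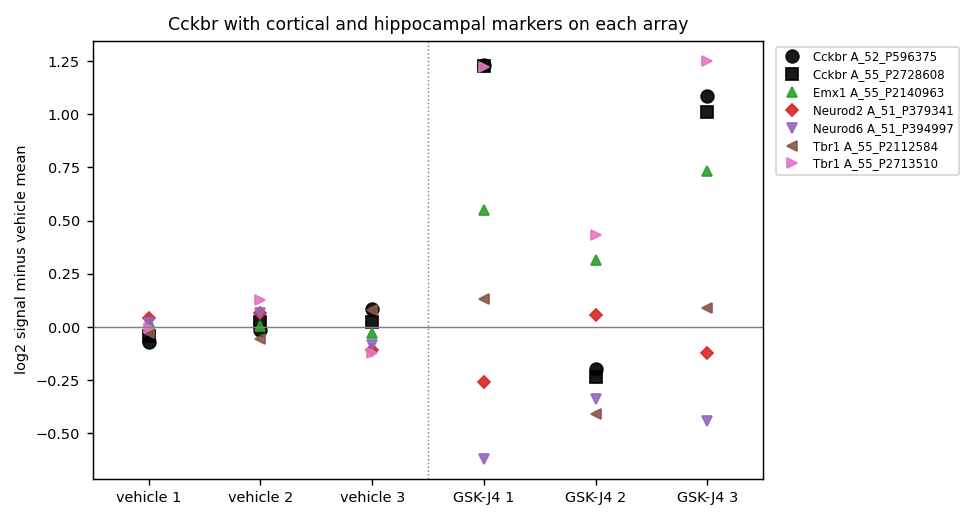
Log2 signal minus the vehicle mean (y axis) of the 2 tested Cckbr probes (black) and of the 5 tested probes for cortex and hippocampus (colours) on each of the 6 arrays (x axis). Cckbr, Emx1 and both Tbr1 probes are higher on GSK-J4 1 and 3 than on GSK-J4 2, and Neurod2 and Neurod6 are not.

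The receptors for ghrelin, glucagon-like peptide 1 and calcitonin were at or near background. Ghsr read 4.53, 4.30 and 3.87 in vehicle, where 2 of 3 arrays were well above background, and 4.20, 4.25 and 4.12 in GSK-J4, where none was. The dim group allows no fold. Glp1r read 2.42, 2.71 and 3.31 in vehicle and 4.33, 3.92 and 4.45 in GSK-J4, and did not stand well above background on any array. The lowest signal that counted as well above background was itself between 3.79 and 3.90 on the vehicle arrays and between 4.39 and 4.64 on the GSK-J4 arrays, so that the Glp1r values give no order between the groups.

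Calcr did not stand well above background on any array at either probe. A_52_P469789 read 1.99, 1.94 and 1.95 in vehicle and 2.82, 1.91 and 1.94 in GSK-J4, and A_55_P2619263 read 1.92, 1.92 and 1.95 in vehicle and 4.34, 1.90 and 1.99 in GSK-J4. Only GSK-J4 1 left the common low value at these probes, and it did so below the level of detection. The arrays thus held no measured level of Glp1r or Calcr in either group.

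The peptides that act on these receptors were examined next. Of 13 ligand genes, 8 had a tested probe, and 3 of their 9 tested probes rose, 0 fell, with a median difference of 0.14, beside 8.39% higher and 8.42% lower of all tested probes and their median of 0.02. Pomc, the precursor of α-MSH, rose by 0.85 (limma adjusted p = 0.0220), Npy (neuropeptide Y) by 0.42 (limma adjusted p = 0.0267) and Gcg, the precursor of glucagon-like peptide 1, by 0.38 (limma adjusted p = 0.0432). With the trend on GC content removed, Pomc kept its call (adjusted p = 0.0489) and Npy and Gcg did not (0.157 and 0.0798). Over 17 alternatives the Gcg call held in 3, against 10 for Pomc and 9 for Npy. The Gcg call was lost under 75th percentile scaling (limma adjusted p = 0.123) and under normexp (limma adjusted p = 0.148). The remaining Gcg probe, A_51_P406253, was too dim to test. It read 3.16, 3.34 and 3.38 in vehicle and 2.04, 3.23 and 4.51 in GSK-J4. Cck and Ghrl (ghrelin) were well above background on all 6 arrays, and Gast, Ppy, Iapp and Calcb on none.

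Among partner proteins of the receptors and enzymes that make their ligands, 2 of 18 tested probes rose and 2 fell, near the shares over all tested probes (8.39% and 8.42%), with a median of 0.21. Both probes that rose were of Ramp1, which turns Calcr into an amylin receptor, at 0.49 (limma adjusted p = 0.0196) and 0.47 (limma adjusted p = 0.0301), and the remaining Ramp1 probe was at 0.24 (limma adjusted p = 0.0587). A probe of Pcsk2, the prohormone convertase that trims Pomc to its smaller peptides, fell by 1.13 (limma adjusted p = 0.00919), and a probe of Atrn (attractin) fell by 0.30 (limma adjusted p = 0.0395). The other tested probe of each gene was not called and lay on the other side of 0, at 0.17 for Pcsk2 (limma adjusted p = 0.289) and at 0.22 for Atrn (limma adjusted p = 0.120). With the GC trend removed, the Atrn probe lost its call (adjusted p = 0.253) and the called probes of Ramp1 and Pcsk2 kept theirs.

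Among the other receptors of these families and of feeding hormones, 3 of 15 tested probes rose and 0 fell, beside 8.39% and 8.42% of all tested probes, with a median of 0.12. A probe of Lepr, the leptin receptor, rose by 0.66 (limma adjusted p = 0.0146), whereas the other tested Lepr probe was at -0.06 (SE 0.79, limma adjusted p = 0.965). The tested probe of Mc5r, a melanocortin receptor best known from exocrine glands, rose by 0.62 (limma adjusted p = 0.0300) and that of Prlhr, the receptor of prolactin-releasing peptide, by 0.44 (limma adjusted p = 0.0226). Prlhr lost its call with the GC trend removed (adjusted p = 0.226). The cholecystokinin receptor Cckar and the pancreatic polypeptide receptor Npy4r did not stand well above background on any array.

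Downstream of the receptors, 6 of 43 tested probes for G proteins, their effectors and receptor kinases rose and 4 fell, beside 8.39% and 8.42% of all tested probes, with a median of 0.08. One probe each rose for Prkaca, a catalytic subunit of protein kinase A, by 0.78 (limma adjusted p = 0.0144), for Prkar1b, a regulatory subunit of it, by 0.44 (limma adjusted p = 0.0317) and for Grk6, a receptor kinase, by 0.40 (limma adjusted p = 0.0347). The other tested probes of these genes were not called, at 0.13 for Prkaca (limma adjusted p = 0.214), 0.08 for Prkar1b (limma adjusted p = 0.536) and 0.25 and 0.30 for Grk6 (limma adjusted p = 0.0744 and 0.0721). Gnas, which encodes the stimulatory G protein through which the melanocortin, glucagon-like peptide 1 and calcitonin receptors signal, gave probes of opposite direction. A_55_P2729011 rose by 0.94, A_52_P112188 fell by 0.54 and A_55_P2081313 fell by 0.33, the last of which was 0.16 under scaling to the 75th percentile. The other 4 tested Gnas probes were not called, with differences from -0.47 to 0.03. Without the GC trend, the probes of Prkar1b and Grk6 lost their calls (adjusted p = 0.0557 and 0.320). None of the calls named in these 4 lists held when any 1 vehicle array was left out.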

How the data were processed

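The authors hybridised hypothalamic RNA of 3 GSK-J4 and 3 vehicle DIO mice to 1-colour Agilent arrays, extracted spot intensities with Feature Extraction 10.7.1.1 (per the submitters' processing notes and the file headers) and deposited these intensities with their flags. The signals reported come from their second deposited file, which holds log2 values of 56745 probes, quantile normalized in GeneSpring per the methods. Deposited columns were matched to arrays by sample name, and 0 were left unassigned. Of 56605 probes that were not controls, 34443 cleared background on every array of 1 group or of both. The number of arrays limits the precision. Groups were compared with limma 3.58.1 (lmFit and eBayes, two-sided, no covariate) in R 4.3.3 over these probes, called at a Benjamini-Hochberg adjusted p of at most 0.05, and the fit was tested on simulated data. Single gaps between probes were tested by exact permutation. Where a group was not well above background, only a bound was considered.

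The receptors, gene lists and markers were chosen with earlier results of these data known. In each of 4 lists (ligands; partners and enzymes; other receptors; G proteins and kinases), up to 4 genes were named by largest absolute difference among those called. Genes most like a receptor were to be named only for a receptor with a called probe, of which there were 0. The markers named beside Cckbr and Mc3r were chosen after their values were seen. Some genes of the marker lists are not reported here. Alternatives were quantile normalization or 75th percentile scaling of the scanner signals, normexp with an offset of 50, other filters, variance models and tests, array weights, a replicate block, removal of the trend on GC content (lowess, span 30%), 1 probe for each gene, and leaving out each array.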

Additional observations from a re-analysis of the deposited data

How the results depend on the processing

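Over the alternatives, 127 of 136 values of the 8 tested receptor probes kept their direction and stayed past no threshold, 4 passed it and 5 changed sign. The sign changes were all of Npy1r A_55_P2103452, a value near 0: it was 0.11 under 75th percentile scaling, 0.10 with the GC trend removed, with and without the replicate block, and between -0.035 and 0.037 when each array was left out (0.035 without vehicle 3, 0.037 without GSK-J4 2). Receptor probes called higher ranged from 0 to 2 and lower from 0 to 1 when each array was left out, the calls being those given without GSK-J4 2. With normexp 1 receptor probe was called lower, Npy5r (-0.32, adjusted p = 0.0421), and with no filter on dim probes 1 was called higher, Glp1r (1.42, adjusted p = 0.0479), a probe not well above background on any array. The median over the receptor probes stayed between 0.03 and 0.17.

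Over all tested probes, those called higher numbered 5037 under 75th percentile scaling (58.1% of calls against 49.9%), 1793 with no filter and 1485 with the GC trend removed (41.2% of calls). With 1 probe for each gene name 1723 were called lower. The methods' t-test with Benjamini-Hochberg adjustment called 56 higher and 37 lower, and the methods' thresholds, a fold of 1.5 and an unadjusted p of 0.05, called 1139 (3.31%) and 1799 (5.22%), with 0 receptor probes in either direction. Leaving out each array gave 1 to 2075 higher and 4 to 2481 lower. With the replicate block limma called 0 higher and 0 lower, receptor probes included, with 11070 probes and 3 receptor probes at an unadjusted p of 0.05. With the block and the GC trend removed it again called 0 and 0, with 9532 and 2 at an unadjusted p of 0.05. Deviations of same-numbered arrays correlated at 0.01, 0.03 and 0.08, beside -0.10 to 0.09 for arrays of different number. With 3 arrays a group, these values cannot settle whether the numbers pair the arrays. Among the named genes, Gnas A_55_P2081313 alone changed sign (0.16 under 75th percentile scaling). Dim signal limits Mc3r, Ghsr, Glp1r and Calcr, and with 3 arrays a group the intervals of the tested probes reached from 0.20 to 0.94 on either side of the difference.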
